A study of Homo sapiens with 6 samples.

Results

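The genes described here are 26 genes of cholesterol synthesis and its control, taken by symbol from a count table of 20030 genes. They comprise 18 enzymes that turn acetyl-CoA into cholesterol, 4 genes that control the SREBP pathway (SREBF2, SCAP, INSIG1 and INSIG2) and 4 genes of sterol uptake, transport and receptor turnover (STARD4, NPC1L1, MYLIP and TMEM97). The list does not hold every gene of the pathway. All 26 were found in the table, and 25 had enough counts to be tested. In HepG2 cells with KIF11 knockdown, 23 of these 25 were lower than in control cells, none was higher and 2, PMVK and MYLIP, did not pass the test. Of all 12369 genes tested, 34.7% were lower and 34.4% higher.

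HepG2 is a hepatoma line, and the experiment set 3 libraries of HepG2 with a control shRNA (sh-ctrl) beside 3 libraries of HepG2 with an shRNA to KIF11 (sh-KIF11). Both shRNAs were carried by lentivirus in the pLKO.1 vector. KIF11 is a kinesin motor that separates the spindle poles in mitosis. Poly(A) RNA was sequenced, and nothing in the labels says that the 3 libraries of a group came from separate cultures or infections, so the p-values measure the spread between these libraries, which may be technical.

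Cholesterol is built in the cytosol and endoplasmic reticulum. The mevalonate steps make isoprenoid units, the squalene steps join and cyclise them into lanosterol, and the later steps trim lanosterol to cholesterol. SREBP2, the product of SREBF2, is held in the membrane of the endoplasmic reticulum by SCAP and the INSIG proteins when sterols are plentiful. When sterols are scarce SCAP escorts it to the Golgi, where proteases release a transcription factor that binds sterol regulatory elements, usually beside sites for NF-Y (the CCAAT box) and Sp1 (the GC box), in the genes of this pathway. Hepatocytes are a main site of this synthesis.

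The promoters of the list were examined for these letters in RefSeq windows (GRCh38.p14) that run from 250 bases before to 50 bases after a start site, on both strands, and 23 of the 26 genes had such a window. ACAT2, FDFT1 and SQLE had none. The core of the sterol regulatory element was searched as TCACNCCAC. The NF-Y box was searched by the letters CCAAT. For Sp1 the search used GGGCGG, and no search excluded a match that lay within another. A CCAAT box stood in the windows of 19 of the 23 genes (82.6%), against 39.7% of the 27305 genes with windows. A GC box stood in 21 of the 23 (91.3%), against 48.3% of all genes. The exact sterol core stood in 1 of the 23, SREBF2 itself, where it begins 133 bases before the start site, and in 1.39% of all genes. With at most 1 letter allowed to differ, a search added after the exact one, 9 of the 23 (39.1%) held it, against 28.2% of all genes. PMVK, CYP51A1, SCAP and INSIG2 had no CCAAT box in their windows. These are matches of letters, not measured sites. The 27305 genes were not limited to genes tested here, so the list was not compared with expressed genes alone. Windows of 4 genes follow, cut where the first exon of the gene begins in GENCODE release 29: SREBF2, which alone holds the exact sterol core (chr22:41832855-41833078, plus strand), MVD, among the enzymes with the largest fall (chr16:88663162-88663341, minus strand), MSMO1, an enzyme with a smaller fall (chr4:165327419-165327622, plus strand), and INSIG2, which has no CCAAT box (chr2:118088221-118088451, plus strand). They are written 5′ to 3′ on the strand of the gene, and capitals mark the sterol core and the CCAAT boxes, the latter read ATTGG where they lie on the other strand.
SREBF2: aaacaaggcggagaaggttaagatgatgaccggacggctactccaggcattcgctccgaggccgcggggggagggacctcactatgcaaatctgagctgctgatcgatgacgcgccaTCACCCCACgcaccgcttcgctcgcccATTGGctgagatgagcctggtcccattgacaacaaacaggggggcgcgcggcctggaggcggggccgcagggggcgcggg
MVD: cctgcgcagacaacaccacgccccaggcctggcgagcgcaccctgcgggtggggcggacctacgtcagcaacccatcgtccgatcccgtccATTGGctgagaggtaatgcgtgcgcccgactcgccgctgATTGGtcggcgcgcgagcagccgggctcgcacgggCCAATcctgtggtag
MSMO1: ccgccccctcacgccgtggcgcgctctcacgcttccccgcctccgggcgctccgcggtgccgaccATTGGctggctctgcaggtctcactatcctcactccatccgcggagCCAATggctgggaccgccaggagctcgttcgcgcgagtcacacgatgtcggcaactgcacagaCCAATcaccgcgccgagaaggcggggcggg
INSIG2: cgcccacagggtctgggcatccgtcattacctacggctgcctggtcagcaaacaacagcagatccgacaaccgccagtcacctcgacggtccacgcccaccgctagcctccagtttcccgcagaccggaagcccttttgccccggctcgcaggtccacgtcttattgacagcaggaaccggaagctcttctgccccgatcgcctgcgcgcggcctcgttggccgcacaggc

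The libraries held 18167773 to 19583282 counts, and 3 counts, the limit that a count of 0 allows, correspond to 0.145 to 0.178 CPM (counts scaled to the size of the library) for counting error only. CPM values are scaled by TMM, a factor that sets the middle of the tested genes equal between libraries. The targeted gene was lower in the knockdown: KIF11 had 1976, 2088 and 2039 counts in sh-ctrl against 1448, 1478 and 1240 in sh-KIF11 (log2 fold change -0.75, SE 0.0573). The change in the transcriptome was broad. Of 12369 genes tested in edgeR by quasi-likelihood, 69.1% passed a Benjamini-Hochberg adjusted threshold of 0.05, 34.4% higher and 34.7% lower in sh-KIF11, and in 71.2% the CPM of the groups did not overlap. When libraries were scaled by their totals alone, 6621 genes were higher and 2373 lower, against 4254 and 4294 with TMM, and the median over all genes of the log2 fold change moved from 0.00 to 0.24. Changes below are therefore relative to the middle of all tested genes.

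Among the 25 tested genes of the list, 23 were lower (92%), against 34.7% of all tested genes, and 0 were higher, against 34.4%. The adjusted p of the 23 lay between 1.59e-23 and 0.00413 in the edgeR quasi-likelihood test (Benjamini-Hochberg). The groups did not overlap in 23 of the 25, against 71.2% of all genes. These 23 are not quite the same genes: SCAP was called lower although its groups overlapped, and PMVK was not called although its groups did not. The median log2 fold change of the 25 was -0.85, with values from -1.22 (EBP) to 0.08 (MYLIP), while the quartiles of all tested genes were -0.31 and 0.36. Of the 25 genes, 21 lay below the lower quartile. A log2 fold change of -1 or less was found for 6 of the 25, all of them enzymes (ACAT2, MVK, MVD, FDPS, LSS and EBP), and for 3.52% of all tested genes. With library totals the median of the list was -0.62, beside 0.24 for all genes, a shift that is the same for every gene. The median of the list minus that of all genes was -0.86 with TMM, -0.73 with limma on log2(FPKM + 1) and -0.93 with no filter on low counts. In bulk RNA, fewer expressing cells and less mRNA per cell cannot be told apart.

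**Figure D1:**
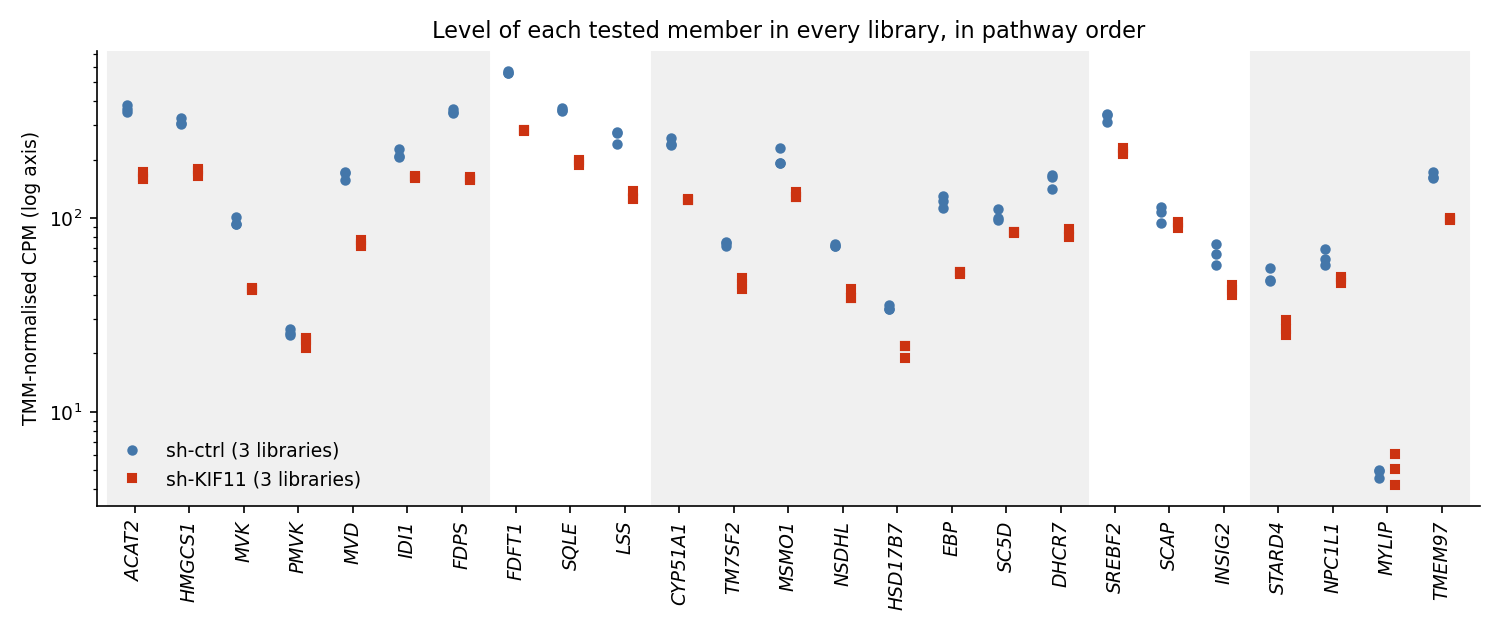
Level of each of the 25 tested genes in TMM-normalised CPM on a log axis, in pathway order, with 1 point per library (blue circles sh-ctrl, red squares sh-KIF11, 3 libraries each) and shading that separates the role groups. The red squares lie below the blue circles for 23 genes, and the groups overlap for SCAP and MYLIP.

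The summed level of the enzymes was lower in every knockdown library. The 18 enzymes together held 3732 ± 25.95 CPM in sh-ctrl against 1988 ± 14.98 CPM in sh-KIF11 (SD, n = 3), a ratio of 0.533. The single libraries lay between 3706 and 3758 CPM in sh-ctrl and between 1971 and 1999 CPM in sh-KIF11, so the groups were far apart relative to their spread. As a share of all counts, which scales by library totals in place of TMM, the enzymes took 0.344% ± 0.00164 in sh-ctrl and 0.215% ± 0.00130 in sh-KIF11. Of the 18 enzymes, 17 were lower (94.4%, against 34.7% of all tested genes). The median log2 fold change of the 18 was -0.91.

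**Figure D2:**
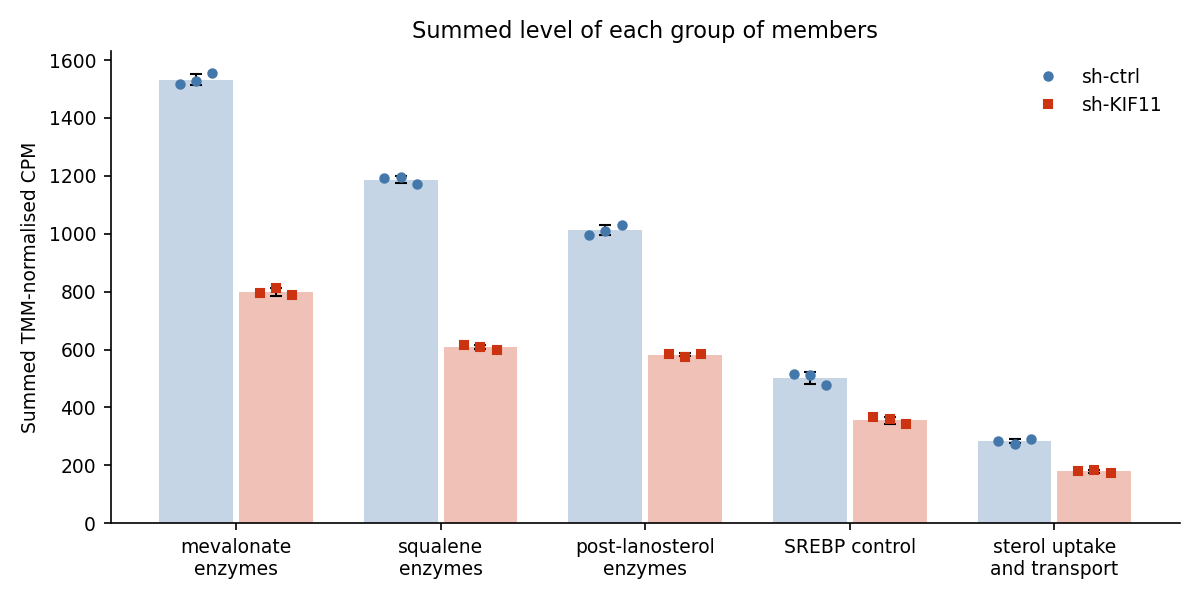
Summed TMM-normalised CPM of the genes of each role group (bars, mean; error bars, SD; points, the 3 libraries of sh-ctrl in blue and of sh-KIF11 in red). The ratio of sh-KIF11 to sh-ctrl was 0.521 for the mevalonate enzymes, 0.512 for the squalene enzymes, 0.575 for the post-lanosterol enzymes, 0.707 for the SREBP control genes and 0.633 for the uptake and transport genes.

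Of the 7 enzymes of the mevalonate steps, 6 were lower (85.7%, against 34.7% of all tested genes). The median log2 fold change of the 7 was -1.15. ACAT2, the cytosolic thiolase that joins acetyl-CoA units in the first step, had 6246, 6568 and 6416 counts in sh-ctrl against 3243, 3587 and 3134 in sh-KIF11. Its level fell from 365 ± 14.99 to 165 ± 7.64 CPM (SD, n = 3), a log2 fold change of -1.15 (SE 0.0506), and no library of one group came near the other. ACAT2 shares 26.5% of its exonic bases with SOD2 and 9.2% with TCP1, both on the opposite strand, so its counts carry that uncertainty if strand was not used in counting. HMGCS1, which makes HMG-CoA, had 5488, 5471 and 5529 counts in sh-ctrl against 3313, 3685 and 3429 in sh-KIF11 (log2 fold change -0.86, SE 0.05). The 3 control libraries of HMGCS1 differed little, and the knockdown libraries all lay well below them. MVK, mevalonate kinase, had 1794, 1686 and 1579 counts in sh-ctrl against 876, 884 and 852 in sh-KIF11 (log2 fold change -1.15, SE 0.0589), and its knockdown libraries were almost equal.

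MVD, the decarboxylase that makes isopentenyl diphosphate, stood at 167 ± 9.14 CPM in sh-ctrl against 74.1 ± 2.95 CPM in sh-KIF11 (SD, n = 3), from 3090, 3072 and 2635 against 1549, 1526 and 1407 counts. It lies on chromosome 16 from 88651935 to 88663161 (GRCh38, minus strand) and overlaps no other gene of GENCODE 29. Its log2 fold change of -1.17 (SE 0.0541) was the lowest of the mevalonate enzymes, although MVK, FDPS and ACAT2 differed from it by less than their standard errors. FDPS, which builds farnesyl diphosphate, had 6255, 6566 and 5830 counts in sh-ctrl against 3252, 3296 and 3083 in sh-KIF11 (log2 fold change -1.15, SE 0.0488). The reads of FDPS could be shared with 8 pseudogene copies, none of which is a gene of the count table.

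The 2 remaining mevalonate enzymes moved less. IDI1, the isomerase that interconverts the isoprenoid units, fell from 214 ± 10.9 to 162 ± 1.66 CPM (SD, n = 3), a log2 fold change of -0.40 (SE 0.05, 95% interval -0.50 to -0.30), from 3716, 3732 and 3820 to 3282, 3364 and 3162 counts. All 3 knockdown libraries of IDI1 were below all 3 control libraries. PMVK, phosphomevalonate kinase, had 479, 448 and 429 counts in sh-ctrl against 430, 485 and 473 in sh-KIF11. Its CPM was 25.7 ± 1.05 (SD, n = 3) against 22.9 ± 1.34, with a log2 fold change of -0.16 (95% interval -0.33 to -0.00) and a Benjamini-Hochberg adjusted p of 0.0687 in the edgeR quasi-likelihood test. The direction of PMVK depended on the scaling, with a log2 fold change of 0.068 for library totals and 0.049 for limma on log2(FPKM + 1). PMVK is the enzyme between MVK and MVD, and its interval did not reach the intervals of either neighbour (MVK -1.27 to -1.03, MVD -1.28 to -1.06).

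The 3 squalene enzymes were all lower, against 34.7% of all tested genes, with a median log2 fold change of -0.98 and a narrow range. FDFT1, squalene synthase, had the highest counts of the list, 9908, 10270 and 9482 in sh-ctrl against 5661, 5894 and 5629 in sh-KIF11, and its log2 fold change was -0.98 (SE 0.0471). SQLE, squalene epoxidase, had 6425, 6391 and 6223 counts against 3918, 4101 and 3710 (log2 fold change -0.90, SE 0.0484). LSS, which closes the ring to lanosterol, had 4927, 4955 and 4077 counts against 2748, 2637 and 2483 (log2 fold change -1.02, SE 0.0538). In each of the 3 genes the groups lay apart, and the sh-ctrl libraries of LSS were the most spread, from 242 to 276 CPM.

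All 8 post-lanosterol enzymes were lower, against 34.7% of all tested genes, but over a wider range, from -1.22 to -0.29 with a median of -0.78. EBP, the sterol isomerase, had the lowest log2 fold change of all 25 tested genes. It lies on chromosome X from 48521158 to 48528716 (GRCh38, plus strand) and had 2193, 2332 and 1901 counts in sh-ctrl against 1057, 1093 and 1008 in sh-KIF11. Its level fell from 122 ± 8.37 to 52.2 ± 0.944 CPM (SD, n = 3), a log2 fold change of -1.22 (SE 0.0576), and 2.08% of all tested genes had a lower one. CYP51A1, the demethylase that acts first on lanosterol, had 4223, 4338 and 4354 counts against 2496, 2567 and 2469 (log2 fold change -0.98, SE 0.0503). DHCR7, a reductase of the last step, had 2902, 3009 and 2383 counts against 1757, 1650 and 1615 (log2 fold change -0.92, SE 0.0573). CYP51A1 shares 79.4% of its exonic bases with AC000120.2, a gene on the same strand that is not in the table, so reads of both would be counted together or dropped. It also has 3 pseudogene copies and HSD17B7 has 2, none of them in the table.

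The enzymes that remove the methyl groups of lanosterol moved less than EBP. NSDHL fell from 72.4 ± 0.795 to 40.2 ± 2.59 CPM (SD, n = 3), a log2 fold change of -0.85 (SE 0.0642). HSD17B7, its partner reductase, fell from 34.4 ± 0.955 to 20.9 ± 1.60 CPM, a log2 fold change of -0.72 (SE 0.0789). MSMO1, the methyl oxidase, fell from 205 ± 21.8 to 131 ± 4.2 CPM, a log2 fold change of -0.64 (SE 0.0566). The spread of MSMO1 in sh-ctrl came from the third library, at 230.1 CPM beside 192 CPM in each of the others. TM7SF2, a sterol reductase whose step LBR can also perform, fell from 73.8 ± 1.61 to 45.8 ± 3.0 CPM, a log2 fold change of -0.69 (SE 0.0628). SC5D, the desaturase before DHCR7, moved least, with 1773, 1771 and 1883 counts against 1675, 1741 and 1667 and a log2 fold change of -0.29 (SE 0.0554). The SC5D groups did not overlap in CPM, but with library totals its log2 fold change was -0.062 (Benjamini-Hochberg adjusted p = 0.31 in the edgeR quasi-likelihood test).

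**Figure D3:**
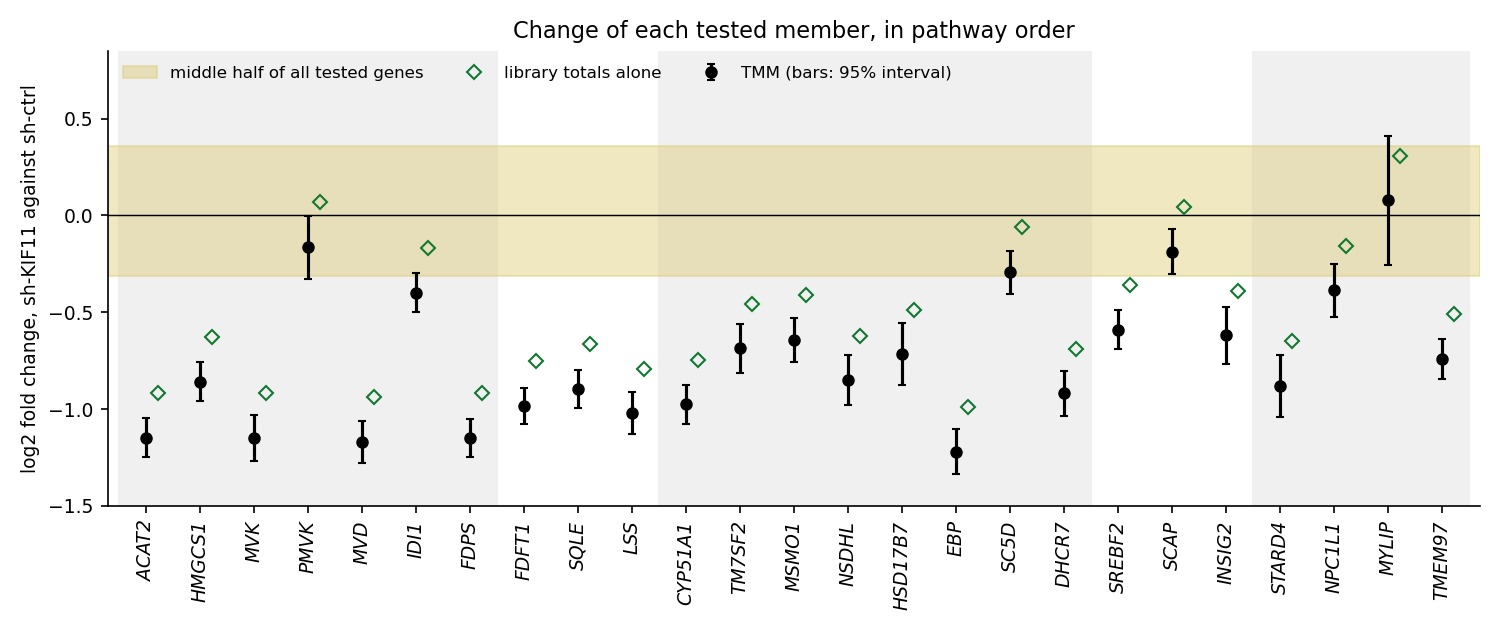
Log2 fold change of each tested gene (sh-KIF11 against sh-ctrl) in pathway order, with black points and 95% intervals for TMM and green diamonds for library totals alone; the yellow band spans the quartiles of all tested genes, -0.31 to 0.36. PMVK, SC5D, SCAP and MYLIP lie within the band with TMM, and the other 21 genes lie below it.

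The unequal fall can be stated without any scaling, as the share that each enzyme took of the counts of all 18 enzymes in its own library. In 13 of the 18 the shares of the groups did not overlap, in 6 because the share was higher in sh-KIF11 and in 7 because it was lower. In CPM, a different measure, the groups did not overlap in 71.2% of all tested genes. Shares within other sets of genes were not computed, so whether this count is particular to the enzymes was not tested. PMVK took 0.725%, 0.665% and 0.676% of the enzyme counts in sh-ctrl against 1.07%, 1.17% and 1.22% in sh-KIF11, 1.68 times the control share. The share of SC5D was 1.53 times and that of IDI1 1.42 times the control share, and those of MSMO1, TM7SF2 and HSD17B7 were 1.20, 1.17 and 1.14 times. EBP fell most in share, from 3.26% ± 0.238 (SD, n = 3) to 2.63% ± 0.0279, or 0.806 times. The shares of MVD, MVK, FDPS and ACAT2 lay between 0.835 and 0.847 times the control share, and those of FDFT1 and CYP51A1 at 0.949 and 0.954 times. HMGCS1, SQLE, LSS, NSDHL and DHCR7 kept shares that overlapped between the groups. An exact permutation test of 3 against 3 libraries cannot give a two-sided p below 0.1, so no single share could pass a threshold, and because shares sum to a fixed total a higher share of one enzyme lowers those of others.

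**Figure D4:**
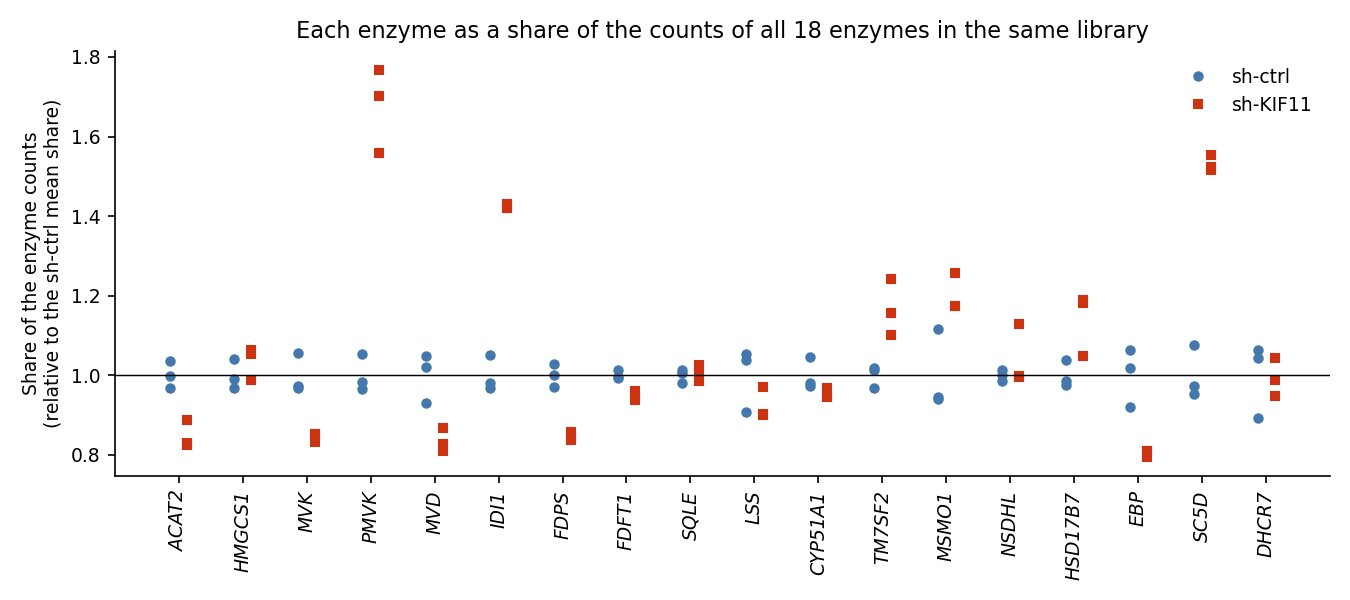
Share of each enzyme in the counts of all 18 enzymes of the same library, divided by its mean share in sh-ctrl (blue circles sh-ctrl, red squares sh-KIF11, 3 libraries each). PMVK, SC5D and IDI1 stand at 1.42 to 1.68 times their control share, and EBP lies lowest at 0.806 times.

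The genes of SREBP control fell less than most enzymes. SREBF2, which encodes SREBP2, lies on chromosome 22 from 41833079 to 41907308 (GRCh38, plus strand) and had 6147, 6119 and 5245 counts in sh-ctrl against 4601, 4533 and 4193 in sh-KIF11. Its level fell from 331 ± 18.2 to 220.3 ± 8.43 CPM (SD, n = 3), a log2 fold change of -0.59 (SE 0.0504), with every knockdown library below every control library. INSIG2, which retains SCAP in the endoplasmic reticulum, had 1024, 1180 and 1243 counts against 849, 938 and 791 (log2 fold change -0.62, SE 0.0725). SCAP, the escort protein, had 2030, 1943 and 1593 counts against 1880, 1968 and 1747. The SCAP groups overlapped, at 94.4 to 114 CPM against 88.6 to 95.1 CPM, and its log2 fold change was -0.19 (SE 0.0579, Benjamini-Hochberg adjusted p = 0.00413 in the edgeR quasi-likelihood test). The call of SCAP was lost with upper-quartile factors (-0.11, adjusted p = 0.0888) and without sh-ctrl replicate 1 (-0.12, adjusted p = 0.0710), and its sign turned with library totals (0.043), all in the same edgeR test with Benjamini-Hochberg adjustment.

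INSIG1, the other retention protein and a well known SREBP2 target, could not be compared. It had 5, 1 and 0 counts in sh-ctrl against 0, 0 and 0 in sh-KIF11, so all libraries but sh-ctrl replicate 1 were at or under 3 counts and no fold is given. INSIG1 lies on chromosome 7 from 155297776 to 155310235 (GRCh38, plus strand), has 3650 exonic bases and overlaps no other gene in GENCODE 29. The deposited FPKM table, which lists the same genes, had 0.109, 0.0215 and 0 in sh-ctrl and 0 in each sh-KIF11 library. Whether the annotation used for counting covered INSIG1 fully is not known here and was not tested, so these counts are not read as its level of expression. INSIG2, with the related function, had at least 791 counts in every library.

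Of the 4 genes of uptake, transport and receptor turnover, 3 were lower (75%, against 34.7% of all tested genes). The median log2 fold change of the 4 was -0.56. STARD4, a cytosolic carrier of cholesterol, had 852, 854 and 935 counts in sh-ctrl against 537, 619 and 491 in sh-KIF11 (log2 fold change -0.88, SE 0.0787), a fall of the size seen in the enzymes. TMEM97, a sterol-regulated membrane protein, had 2901, 2904 and 2926 counts against 2006, 2055 and 1927 (log2 fold change -0.74, SE 0.0511). It shares 11.9% of its exonic bases with IFT20 on the opposite strand. NPC1L1, the sterol importer, had 1232, 1114 and 970 counts against 968, 1027 and 909 (log2 fold change -0.39, SE 0.0672), and its groups did not overlap in CPM. MYLIP, a ubiquitin ligase that marks lipoprotein receptors for degradation and is driven by LXR rather than SREBP2, had 81, 91 and 84 counts against 84, 126 and 100. Its groups overlapped, and the log2 fold change of 0.08 had a 95% interval from -0.26 to 0.41, so a change of that size in either direction was not detectable at this depth.

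Set against the 8 other genes of the list, the enzymes were lower by more. The median log2 fold change was -0.91 for the 18 enzymes and -0.59 for the 7 tested genes of control, uptake and transport. Of these 7, 6 were lower (85.7%, against 34.7% of all tested genes). Counts of the enzymes divided by counts of the other 8 genes, a ratio within each library that needs no scaling, were 4.63, 4.74 and 4.88 in sh-ctrl against 3.66, 3.67 and 3.83 in sh-KIF11. All 3 knockdown libraries lay below all 3 control libraries in this ratio, with means of 4.75 ± 0.125 and 3.72 ± 0.0919 (SD, n = 3). The single genes of the groups were mixed, since STARD4 had a lower log2 fold change than 8 of the 18 enzymes (HMGCS1, NSDHL, HSD17B7, TM7SF2, MSMO1, IDI1, SC5D and PMVK), although HMGCS1 and NSDHL differed from it by less than its standard error.

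Levels can be compared between genes only per length, so the deposited FPKM values (fragments scaled to transcript length and to library size) were used for the order. In sh-ctrl ACAT2 had the highest level, 165 ± 4.85 FPKM (SD, n = 3), followed by MSMO1 at 105 ± 9.13, SQLE at 103 ± 1.59 and EBP at 96.4 ± 6.84. The differences between MSMO1, SQLE and EBP were within the spread of the libraries. FDPS (89.0 ± 2.48 FPKM) and FDFT1 (88.7 ± 0.916 FPKM) were also alike in level, although FDFT1 had far more counts. The lowest tested members were STARD4 at 5.64 ± 0.467 FPKM and MYLIP at 1.45 ± 0.0837 FPKM. In sh-KIF11 ACAT2 remained the highest at 84.9 ± 2.78 FPKM, again followed by MSMO1 and SQLE, while IDI1 moved from place 15 to 12 and MVD from 12 to 16 in the order.

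Other genes of cholesterol handling, 55 genes in 6 lists outside the 26, were less uniform. Of the 49 tested, 31 were lower (63.3%, against 34.7% of all tested genes) and 9 higher (18.4%, against 34.4%), with a median log2 fold change of -0.27. Among them the accessory enzymes of the sterol steps, which supply electrons or act beside the 18 enzymes, were the only list in which all tested genes (6 of 6) were lower, with a median of -0.66. CYB5A, the cytochrome that passes electrons to the oxidases of the pathway, fell from 144 ± 13.1 to 63.1 ± 0.453 CPM (SD, n = 3), a log2 fold change of -1.19 (SE 0.0576). LBR, the sterol reductase that overlaps in function with TM7SF2, had the smallest fall of this list, -0.51 (SE 0.0559).

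Of 8 genes of SREBP processing and sterol sensing, 5 were lower (62.5%, against 34.7% of all tested genes) and 1 higher (12.5%, against 34.4%). In all, 75% were called, beside 69.1% of all tested genes. SREBF1, which encodes the related factor SREBP1, had 2042, 2080 and 1699 counts in sh-ctrl against 1037, 881 and 818 in sh-KIF11, and its log2 fold change of -1.28 (SE 0.0668) was lower than that of SREBF2. MBTPS2, a protease that releases SREBPs in the Golgi, was higher with a log2 fold change of 0.25 (SE 0.0844), but its groups overlapped. The 15 genes of the isoprenoid branch use mevalonate products for dolichol, ubiquinone and protein prenylation. Of these, 7 were lower (46.7%, against 34.7% of all tested genes) and 4 higher (26.7%, against 34.4%), so that 73.3% were called beside 69.1%. PGGT1B, a prenyltransferase subunit, had 359, 335 and 363 counts against 554, 589 and 557 (log2 fold change 0.49, SE 0.0812). FNTB, a prenyltransferase subunit for farnesylation, had the lowest value, -0.91 (SE 0.302), from only 11 to 49 counts per library. The FPKM of FNTB averaged 11.3 in sh-ctrl, beside 8.91 FPKM for PMVK with 429 to 479 counts, so the counts and the FPKM of FNTB differ in scale. FNTB lost its call without sh-ctrl replicate 2 (-0.69) or sh-KIF11 replicate 3 (-0.60), and MBTPS2 without replicate 2 of sh-ctrl (0.18) or of sh-KIF11 (0.21).

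Of 11 tested genes of cholesterol storage and trafficking, 7 were lower (63.6%, against 34.7% of all tested genes) and 1 higher (9.09%, against 34.4%). In all, 72.7% were called beside 69.1% of all tested genes. SCARB1, the receptor for high-density lipoprotein, had 6668, 6703 and 5827 counts against 4478, 4158 and 4071 (log2 fold change -0.79, SE 0.0508). The higher one, GRAMD1C, had 13 to 46 counts per library, a log2 fold change of 0.88 (SE 0.323) and overlapping groups. Of 6 tested genes of LXR and sterol efflux, 4 were lower (66.7%, against 34.7% of all tested genes) and 2 higher (33.3%, near the 34.4% of all tested genes). Both subunits of the sterol exporter changed, in opposite directions, ABCG8 with a log2 fold change of -0.73 (SE 0.118) and ABCG5 with 0.48 (SE 0.0882). Of 3 tested genes of oxysterol and bile acid synthesis, 2 were lower (66.7%) and 1 higher (33.3%), against 34.7% and 34.4% of all tested genes. CYP7A1, the rate-limiting enzyme of bile acid synthesis, rose from 33, 38 and 49 counts to 103, 99 and 96 (log2 fold change 1.11, SE 0.198). CYP8B1 fell on 7 to 24 counts per library (log2 fold change -1.07, SE 0.379). GRAMD1C lost its call without sh-ctrl replicate 1 (0.75), sh-ctrl replicate 2 (0.74) or sh-KIF11 replicate 1 (0.60), and CYP8B1 without replicate 1 of sh-ctrl (-0.91) or of sh-KIF11 (-0.85).

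**Figure D5:**
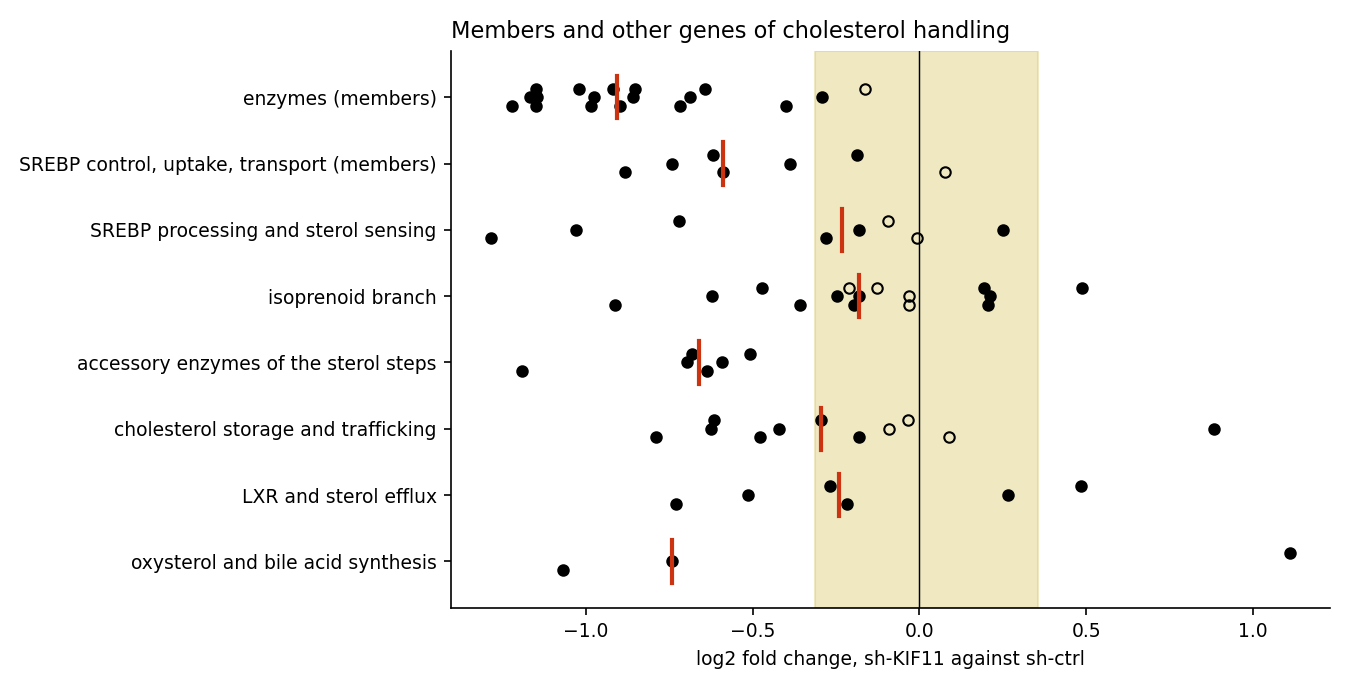
Log2 fold change (sh-KIF11 against sh-ctrl) of every tested gene of the enzymes, of the control, uptake and transport genes and of the 6 further lists, with filled points for genes that passed the edgeR threshold, open points for the others, red bars at the median of each list and a yellow band between the quartiles of all tested genes. The enzymes (median -0.91) and the accessory enzymes (median -0.66) lie almost wholly below the band, while the isoprenoid branch and the efflux genes lie on both sides of 0.

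The deposited annotation carries KEGG terms, and the genes of the 2 closest terms that are outside the 26 were counted in the same way. Of 8 tested genes of Steroid biosynthesis, 3 were lower and 3 higher (37.5% each, near the 34.7% and 34.4% of all tested genes). The term is not limited to enzymes that make sterols, so this count is no measure of sterol synthesis outside the 26. CYP24A1, which degrades active vitamin D, was the highest with 221, 227 and 242 counts in sh-ctrl against 1766, 1927 and 1914 in sh-KIF11 (log2 fold change 2.82, SE 0.0756). Of 13 tested genes of Terpenoid backbone biosynthesis, 7 were lower (53.8%, against 34.7% of all tested genes) and 2 higher (15.4%, against 34.4%). In all, 69.2% were called, against 69.1% of all tested genes. The called genes ran from FNTB at -0.91 to FNTA at 0.21 (SE 0.0711), and FNTA lost its call without sh-ctrl replicate 2 (0.17).

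Hepatocyte markers fell in the same libraries. All 10 of the hepatocyte markers were lower, against 34.7% of all tested genes, with a median log2 fold change of -1.36. Their summed level was 17667 to 20149 CPM in sh-ctrl and 6592 to 7335 CPM in sh-KIF11. ALB had a log2 fold change of -1.49 (SE 0.0579). Markers of other cell types were low: the 7 fibroblast markers summed to 2.55 to 3.93 CPM in sh-ctrl and 1.40 to 2.04 CPM in sh-KIF11, with DCN and THY1 at 0 in every library, and the 5 endothelial markers to 3.16 to 3.56 and 4.69 to 4.98 CPM, with TEK at 0. The leukocyte list summed to 2400 to 2908 CPM in sh-ctrl and 462 to 599 CPM in sh-KIF11 through LYZ alone, which averaged 2613 and 511 CPM, while PTPRC had at most 1 count and CD3E at most 3 in any library. The part of the hepatocyte genes in the change of the 26 genes was not tested.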

How the data were processed

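The data were poly(A) RNA libraries of HepG2 cells, 3 of sh-ctrl and 3 of sh-KIF11, grouped by the sample labels. In the tables the knockdown columns are named only as shRNA and were taken as sh-KIF11, since no label names another shRNA. One table that the authors deposited holds the read count of each gene, not normalized. The other holds deposited FPKM values, which were scaled for the length of the transcript and the depth of the library. The libraries were made with a stranded kit and read as pairs. The submitters' processing notes name bcl2fastq 1.8.4, Trimmomatic, HISAT2 2.1.0, HTSeq 0.9.1, Cufflinks 2.2.1, DESeq and GRCh38 without their roles; the strand setting of the counting is not given in the sources used here.

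Counts were fitted in R 4.3.3 with edgeR 4.0.16 (TMM factors, filterByExpr, glmQLFit and glmQLFTest, group as the only term, two-sided) on all genes, of which 12369 were kept and 7661 left out. The Benjamini-Hochberg adjustment ran over all tested genes with a threshold of 0.05. The standard error is the log2 fold change divided by the root of the F statistic. The biological coefficient of variation was 4.87%, and depth was 18167773 to 19583282 counts per library. Tests were checked on simulated counts. Lists were not tested as sets. Alternatives were RLE, upper-quartile and library-total scaling, a block for the replicate number, leaving out each library, no count filter or a minimum of 10 counts per library, DESeq2 1.42.0, and limma 3.58.1 on log2(FPKM + 1) and log2(FPKM + 0.1).

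The 26 genes, the further lists and the marker lists were chosen with earlier results of these data known. Named genes were all 26, KIF11, and of each further list and KEGG term the lowest and the highest log2 fold change among genes past the threshold. A gene that meets this rule is not reported here. The markers and the overlapping genes named beside a result were chosen after their values were seen. Positions and overlaps came from GENCODE release 29 (GRCh38), and promoter windows from RefSeq (GRCh38.p14).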

Additional observations from a re-analysis of the deposited data

How the results depend on the processing

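No alternative called any of the 25 tested genes higher, while 21 to 24 of the list were lower. The 24 include INSIG1, which entered the test because no filter was used. It had 5, 1 and 0 counts against 0, 0 and 0, so its call is not read as a change. Of the 25 tested genes, 21 kept their direction and their side of the threshold in all 15 alternatives. The exceptions were SCAP, which lost its call with upper-quartile factors (-0.11) and without sh-ctrl replicate 1 (-0.12) and turned positive with library totals (0.043), log2(FPKM + 1) (0.043) and log2(FPKM + 0.1) (0.046); PMVK, which turned positive with the same 3 (0.068, 0.049 and 0.054); SC5D, which lost its call with library totals (-0.062); and MYLIP, which ranged from -0.070 (without sh-KIF11 replicate 2) to 0.20 (without sh-KIF11 replicate 1) when a library was left out and reached 0.31 with library totals, never past the threshold.

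Some scalings moved the medians. For the tested genes of the list, the enzymes and the other genes, the medians were -0.77, -0.83 and -0.51 with upper-quartile factors, -0.62, -0.68 and -0.36 with library totals, -0.61, -0.71 and -0.37 with log2(FPKM + 1) and -0.65, -0.72 and -0.39 with log2(FPKM + 0.1). The median of all tested genes moved with them, to 0.08, 0.24, 0.12 and 0.17. With at least 10 counts in every library, where fewer genes set the factors, the enzymes had a median of -0.88. Leaving out 1 library at a time gave enzyme medians from -0.93 to -0.89. Library totals gave 6621 genes higher and 2373 lower, and 15 of the further cholesterol genes higher against 9. The FPKM fits gave 2596 and 2597 genes lower against 4294 in the count test.

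MBTPS2, FNTB, FNTA, GRAMD1C and CYP8B1 lost their calls when a library was left out, as given beside their values, and kept their direction.

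The replicate numbers did not pair the libraries (correlations of same-numbered deviations 0.03, -0.02 and -0.00). With the replicate number as a block, 4296 genes were higher and 4311 lower, and 23 of the list were lower and 0 higher. Low counts limit INSIG1 and, at 81 to 126 counts per library, MYLIP. The causes of these shifts were not tested.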
